A study of Mus musculus with 18 samples.

Results

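The comparison set the tongue of double mutant mice against the esophagus of wild type mice. All 6 libraries of the E20/p53 group and all 3 of the WT group were taken by their column names, which is 9 of the 18 libraries of the series. Genes were then sought that moved the same way in E20/p53 libraries 1 to 3, block A here, and in libraries 4 to 6, block B. The labels give the E20/p53 genotype as LSL-PIK3CA H1047R; LSL-p53+/R172H; K14-Cre, and the WT group as wild type. H1047R activates the catalytic subunit of PI3-kinase, R172H lies in the DNA-binding domain of p53, and in both alleles a stop element between loxP sites blocks expression until Cre removes it. The K14 promoter drives Cre in basal keratinocytes, so that the alleles are switched on in that layer and its descendants. Every E20/p53 library is tongue and every WT library is esophagus, so tissue and alleles cannot be told apart in any value below. The labels give neither age nor sex, nor whether a sample came from a tumour. Whether a group's libraries stem from different animals or cultures is not said either. The p-values here weigh a difference against the spread of libraries inside each of the 4 groups of the series. That spread includes the shift between blocks A and B as well as library to library spread, possibly technical.

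Squamous epithelium renews from a basal layer of dividing keratinocytes, whose daughters move up, change their keratins and are shed. PI3-kinase passes growth factor and insulin signals to AKT and mTOR, and p53 restrains division after damage. The tongue forms from the pharyngeal arches and neural crest while the esophagus forms from the foregut, and cells keep the patterning transcription factors of their origin.

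Libraries held 14592044 to 18176060 reads. Levels are given as CPM, reads over the scaled library total times 1000000. Pearson's r of log2(CPM + 1) across genes was 0.999 inside each set of 3, 0.962 between WT and block A, 0.942 between WT and block B, and 0.954 to 0.955 between the blocks, and these values describe likeness only. The 2 blocks therefore stand about as far from each other as from WT. Differences are log2 of E20/p53 over WT, positive where the double mutants were higher, and a call is an adjusted p under 0.05 in limma. With each set of 3 averaged to 1 value, limma called 1 gene, and 1574 genes had an unadjusted p under 0.05.

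The labels describe every sample as squamous epithelium, and defining markers of it were at or near 0 in WT and in block B. The 8 genes of the basal keratinocyte list summed to 533 to 601 CPM in WT, 1075 to 1117 in block A and 329 to 406 in block B. Of these 8 genes 0 were called higher and 3 lower, against 26.5% and 21.6% of all genes tested, and they did not move together. Krt5, a keratin of basal keratinocytes, stood at 0, 0.115 and 0.12 CPM in WT, 124, 119 and 136 CPM in block A and 0 reads in each library of block B. Its partner Krt14 stood at 14, 12.5 and 13.6 CPM in WT, 495, 476 and 478 CPM in block A and 0.238, 0.227 and 0.132 CPM in block B. Both were thus high in block A and at or near 0 in block B, while WT held Krt14 at a low level and almost no Krt5. Trp63, the p63 factor of basal cells, stood at 6.09, 63.6 and 2.96 CPM in WT, A and B, but Krt15 (5.91, 2.33 and 0 CPM) and Col17a1 of the same list were highest in WT. Krt4 of the upper squamous layers had 0 reads in WT, and Dsg1a and Krtdap, of differentiated squamous cells, had 0 reads in all 9 libraries. Over the 14 genes of the suprabasal list the summed level was 34.2 to 39.3 CPM in WT, 69.4 to 73.4 in block A and 12.6 to 14.2 in block B.

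Markers of other cell types moved with the sets. Col1a2, a chain of type I collagen, stood at 1344 ± 65.4 CPM in WT, 1.58 ± 0.0573 in block A and 7391 ± 372 in block B (SD, n = 3 in each). The 12 fibroblast genes summed to 2713 to 2824 CPM in WT, 962 to 981 in block A and 22970 to 24833 in block B. Of the 11 tested, 4 were called higher and 1 lower, against 26.5% and 21.6% over all genes tested. In both blocks 3 were higher, among them Pdgfra (8.37, 50.7 and 65.2 CPM in WT, A and B). In both blocks 1 was lower, Thy1 (0.498, 0.0617 and 0.0439 CPM), so the members did not all follow the sum. The 14 skeletal muscle genes summed to 14 to 15.7, 6.23 to 6.89 and 753 to 802 CPM in the same order, and the myoblast factor Myf5 had 0 reads outside block B. The 6 mesothelial genes summed to 422 to 445 CPM in WT, 139 to 156 in block A and 13.9 to 14 in block B. Msln made up most of that sum (427, 147 and 4.84 CPM in WT, A and B), and Wt1 of the same list was higher in both blocks (0.142, 3.06 and 7.65 CPM, adjusted p = 2.4e-07 in limma). The 9 leukocyte genes summed to 16 to 17.7 CPM in WT, 19.1 to 23.1 in block A and 5.85 to 6.52 in block B, mostly Cd68 of macrophages (16.2, 20.9 and 3.06 CPM), while Csf1r stood at 0.299, 0.0374 and 2.2 CPM. Ptprc of all leukocytes had 3 reads in WT, 4 in block A and 0 in block B, and Cd3e of T cells had 0 reads in all 9 libraries. The 9 endothelial genes summed to 3.97 to 4.83, 2.42 to 3.19 and 3.28 to 4.15 CPM in the same order, with Kdr higher in both blocks (0.0399, 1.84 and 1.6 CPM), Pecam1 lower (2.59, 0.268 and 0.788 CPM) and Emcn at 0 reads in all 9 libraries. The part of cell makeup in the results below was not tested, and fewer cells of a type cannot be told apart from less RNA per cell.

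**Figure D1:**
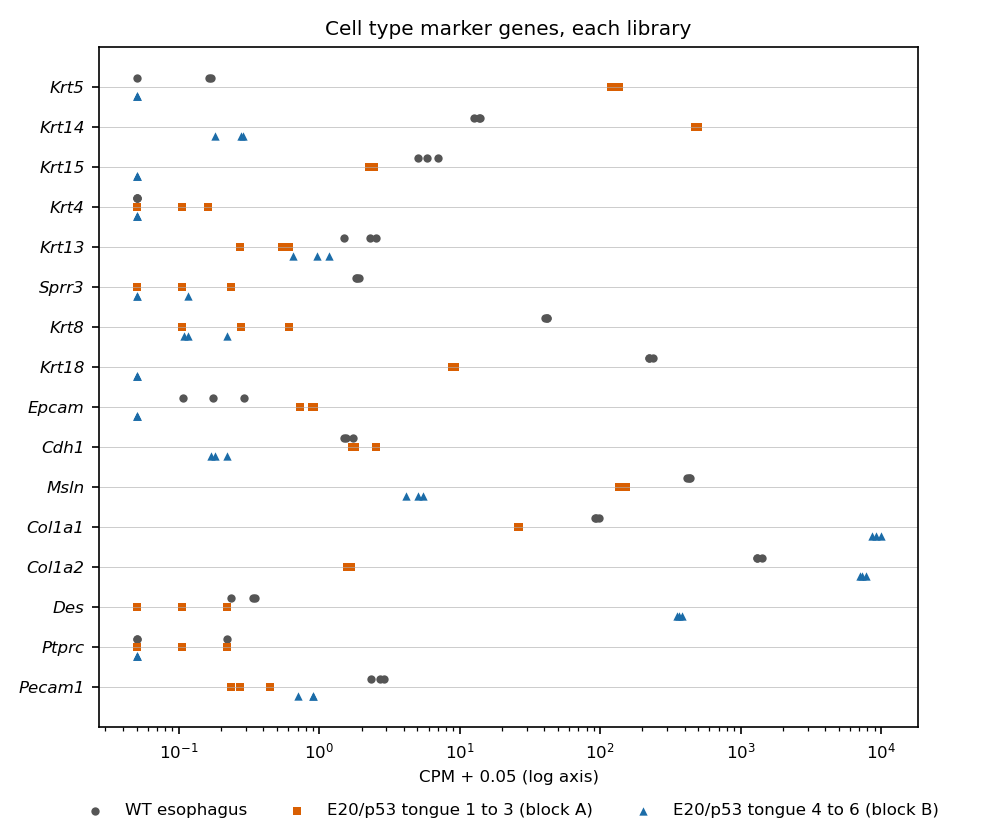
Level of 16 cell type marker genes in each of the 9 libraries, in CPM plus 0.05 on a log axis, 1 point per library. Krt5 and Krt14 lie to the right in block A, Col1a1, Col1a2 and Des in block B, and Krt8 and Krt18 in WT.

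Of 15235 genes tested, 4041 (26.5%) were called higher and 3292 (21.6%) lower in E20/p53. A gene was taken to move the same way in both blocks when it was called, when all 6 E20/p53 libraries lay beyond all 3 WT libraries, and when the mean of each block differed from WT by at least 2-fold in the same direction. On that rule 1096 genes (7.19%) were higher and 1040 (6.83%) lower. Both blocks were set against the same WT libraries, so that a WT value that stands apart enters both. At 4-fold in both blocks 476 genes remained higher and 420 lower, and at 16-fold 150 and 95. The members nearest to the 2-fold limit had a smaller block difference of 1.001 (higher) and 1.002 (lower) on the log2 scale. Of the higher genes 99 had 0 reads in all 3 WT libraries, and of the lower genes 6 had 0 reads in all 6 E20/p53 libraries. A further 7902 tested genes were not called, and 10908 genes of the table had too few reads to be tested.

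**Figure D2:**
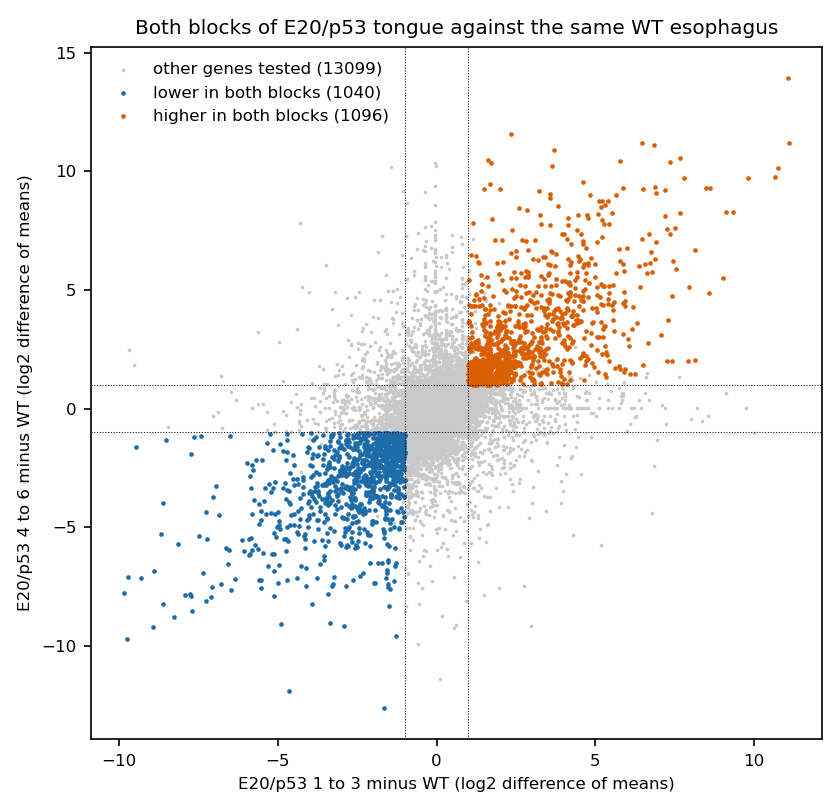
Difference from WT of block A (x axis) and of block B (y axis), log2 of means, 1 point for each of the 15235 genes tested, with dotted lines at 2-fold. The 1096 genes higher in both blocks are in the upper right and the 1040 lower in both in the lower left, and both axes use the same 3 WT libraries.

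The mutated genes themselves came first. Trp53, which encodes p53, stood at 24.9, 26.7 and 25.9 CPM in WT, 190, 168 and 179 CPM in block A and 309, 314 and 312 CPM in block B. All 6 double mutant libraries were above all WT libraries, 6.93-fold and 12.1-fold in the 2 blocks (log2 difference 3.19, SE 0.18, adjusted p = 7.5e-10), and the table does not separate the R172H allele from the other. Pik3ca stood at 122, 128 and 128 CPM in WT, 77.1, 80.8 and 77.1 CPM in block A and 88.7, 88.4 and 88 CPM in block B. It was lower in every E20/p53 library, by less than 2-fold (log2 difference -0.60, SE 0.09, adjusted p = 2.8e-05), and the table gives no separate level for the H1047R allele. Cdkn1a, the cell cycle inhibitor that p53 induces, stood at 5.4, 4.77 and 5.05 CPM in WT, 7.09, 6.39 and 7.25 CPM in block A and 57.5, 61.8 and 65 CPM in block B. It was called higher (log2 difference 2.01, SE 0.77, adjusted p = 0.0415), but block A differed from WT by 0.44 on the log2 scale and block B by 3.58. Its call was lost in limma without any 1 of the 3 WT libraries (adjusted p = 0.0905, 0.104 and 0.0977) and without any 1 of E20/p53 4, 5 and 6 (adjusted p = 0.0785, 0.079 and 0.0789). Mdm2, which marks p53 for degradation, was at 74.8 ± 0.651 CPM in WT, 57.4 ± 3.09 in block A and 68.7 ± 3.38 in block B and was not called (log2 difference -0.25, SE 0.21, adjusted p = 0.336).

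Among 32 known p53 targets 7 were called higher and 7 lower, with a median log2 difference of 0.01 against 0.05 over all genes tested. In both blocks 2 were higher, the lipid transfer protein gene Pltp and the mitotic gene Gtse1, and 3 were lower. Pltp stood at 8.26, 8.62 and 8 CPM in WT, 45.2, 46.4 and 41.5 CPM in block A and 38.6, 41 and 42.2 CPM in block B (log2 difference 2.35, SE 0.11, adjusted p = 4.9e-11). Trp53inp1, a stress-induced partner of p53, stood at 108, 117 and 102 CPM in WT, 34.6, 42.3 and 37.6 CPM in block A and 16.1, 15.1 and 15.7 CPM in block B (log2 difference -2.16, SE 0.31, adjusted p = 2.6e-05). The antiproliferative gene Btg2 (means of 22, 8.53 and 10.8 CPM in WT, A and B) and the kinase gene Plk3 (33.2, 16.1 and 14.3 CPM) were the other two lower genes. These counts, like those of the lists below, are read against the 26.5% of all genes called higher and 21.6% lower, and the 7.19% and 6.83% in both blocks. For the p53 targets the shares lay near those over all genes.

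Genes were ranked by the smaller of the 2 block differences. Pdpn, which encodes the membrane glycoprotein podoplanin of basal keratinocytes, lymphatic vessels and stromal cells, stood at 0.186, 0.0575 and 0.0601 CPM in WT, 129, 144 and 131 CPM in block A and 129, 122 and 130 CPM in block B, 1327-fold and 1255-fold higher (log2 difference 9.76, SE 0.27, adjusted p = 9.9e-14). All 6 double mutant libraries lay close together. Grb10, an imprinted adaptor that dampens insulin and IGF1 receptor signalling, stood at 0.0621, 0 and 0 CPM in WT, 157, 165 and 160 CPM in block A and 1166, 1163 and 1156 CPM in block B. WT held 1 read of Grb10 in all, so no fold is given, and the level in block B was far above that in block A. Tenm3, a cell adhesion gene of the teneurin family, stood at 0.124, 0.172 and 0.0601 CPM in WT, 41.3, 36.7 and 37.7 CPM in block A and 145, 156 and 139 CPM in block B, 324-fold and 1232-fold higher. Bhlhb9, on the X chromosome, had 0 reads in each library of WT, 19.4, 22.6 and 22.1 CPM in block A and 39.5, 35.2 and 38 CPM in block B. Dync1i1 (0.0192, 15.3 and 22.9 CPM in WT, A and B), a dynein chain, and Tmem47 (0.02, 15.2 and 115 CPM), a membrane protein of cell junctions, each had 1 read in WT.

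The 4 Y-linked genes Eif2s3y, Ddx3y, Uty and Kdm5d were also among those that differed most, all with 0 reads in WT. Eif2s3y, a translation initiation factor, had 0 reads in each library of WT, 98.2, 109 and 102 CPM in block A and 70, 66.6 and 66.2 CPM in block B. Xist, which silences 1 X chromosome in females, stood at 0.621, 0.69 and 0.722 CPM in WT, 0.247, 0.56 and 0.618 CPM in block A and 0.893, 0.795 and 0.79 CPM in block B, and was not called. The double mutant libraries thus carried Y-linked RNA in both blocks, and WT carried neither Y-linked RNA nor a high level of Xist. Sex, tissue and genotype cannot be told apart for these genes.

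**Figure D3:**
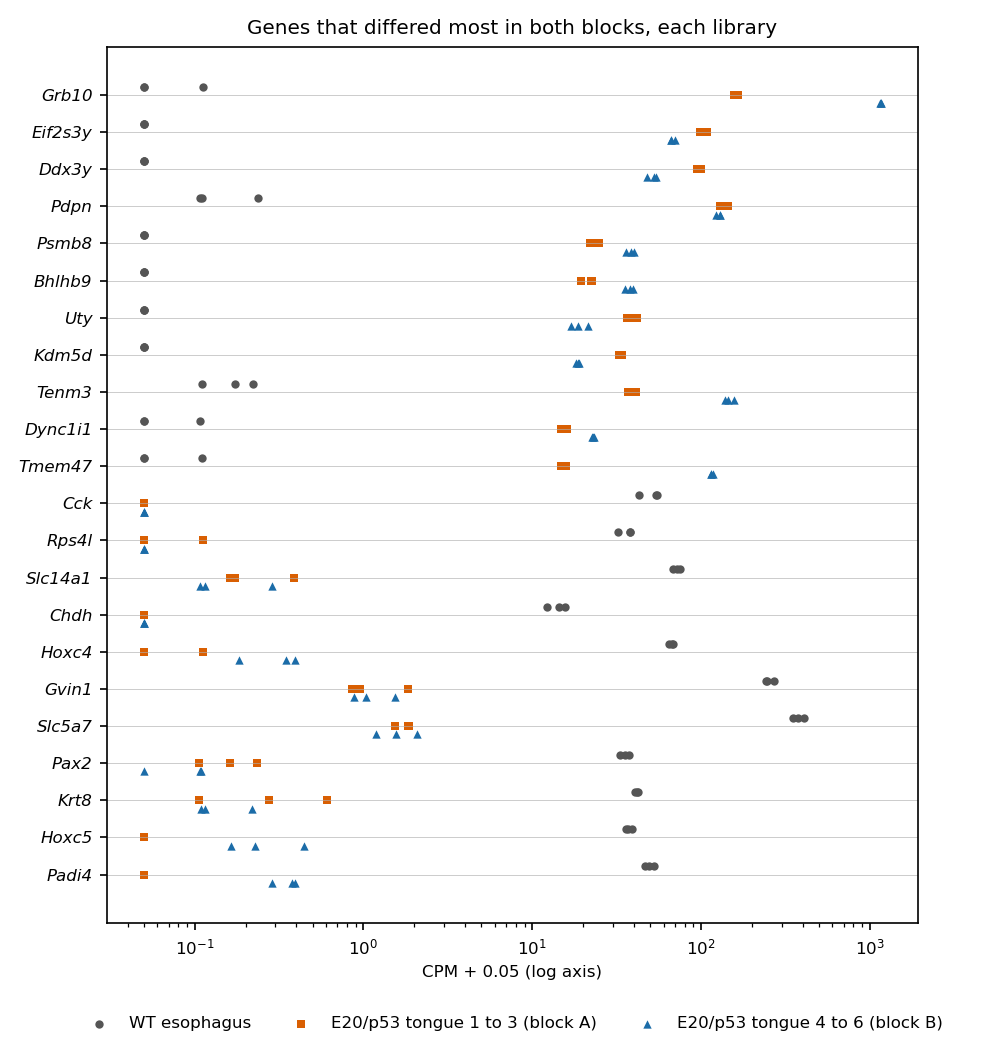
Level of 11 higher and 11 lower genes among those that differed most from WT by the smaller of the 2 block differences, in CPM plus 0.05 on a log axis, 1 point per library. In every gene the 3 WT libraries are separate from all 6 double mutant libraries. Several genes also differ between the blocks, and among the higher genes Grb10, Tenm3 and Tmem47 do so most.

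Among the lower genes Cck, which encodes the gut and brain peptide cholecystokinin, had 54.2, 43.1 and 55.1 CPM in WT, 0 reads in each library of block A and 0 reads in each library of block B, at least 1718-fold lower against 3 reads over the 6 libraries (log2 difference -9.74, SE 0.29, adjusted p = 2.4e-13). Chdh, a mitochondrial choline dehydrogenase, had 15.6, 12.1 and 14.3 CPM in WT, 0 reads in each library of block A and 0 reads in each library of block B, at least 474-fold lower. Slc5a7, the choline transporter, stood at 349, 408 and 373 CPM in WT, 1.48, 1.79 and 1.8 CPM in block A and 2.02, 1.14 and 1.51 CPM in block B, 223-fold and 242-fold lower in the 2 blocks (log2 difference -7.82, SE 0.35, adjusted p = 3.0e-11). Slc14a1, a urea transporter, stood at 68.3, 75.1 and 72 CPM in WT, 0.123, 0.336 and 0.112 CPM in block A and 0.238, 0.0568 and 0.0658 CPM in block B, 377-fold and 597-fold lower. Each of these was well expressed in all 3 WT libraries and at or near 0 in all 6 double mutant libraries. Pax2 (35.3, 0.118 and 0.0388 CPM in WT, A and B), a developmental factor of kidney and ear, was lower as well. Rps4l (36, 0.0206 and 0 CPM), a copy of a ribosomal protein gene, and Gvin1 (253, 1.16 and 1.1 CPM), an interferon-induced GTPase, have near-identical copies in the genome, so their counts are uncertain.

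The next genes lead by level among those that moved the same way in both blocks. Fn1, fibronectin, fell from 19013, 21657 and 19079 CPM in WT to 2862, 2884 and 2780 in block A and 9078, 9908 and 8675 in block B (log2 difference -1.96, SE 0.40, adjusted p = 8.2e-04). Thbs1, the matrix protein thrombospondin, was 2.24-fold and 2.23-fold lower (5716, 2546 and 2564 CPM), and Fth1, the ferritin heavy chain that stores iron, 2.23-fold and 2.18-fold lower (3908, 1753 and 1792 CPM). Tfrc, the transferrin receptor that takes iron up, stood at 75.4, 72.6 and 66.8 CPM in WT, 455, 459 and 460 CPM in block A and 401, 365 and 376 CPM in block B, 6.4-fold and 5.31-fold higher (log2 difference 2.54, SE 0.16, adjusted p = 1.5e-09). Fth1 and Tfrc thus moved in opposite directions in all 6 libraries. Gpnmb (1434, 157 and 67.1 CPM), a membrane glycoprotein, Aqp5 (1130, 285 and 42.4 CPM), a water channel of glands, and Cp (1041, 356 and 194 CPM), the copper protein ceruloplasmin, were lower. Scd2 (482, 1031 and 1099 CPM), which makes unsaturated fatty acids, and Fstl1 (249, 578 and 1459 CPM), a secreted glycoprotein, were higher.

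Cell division genes were higher almost throughout. All 24 mitosis genes were called higher, 21 of them in both blocks, with a median log2 difference of 1.46 in block A and 1.28 in block B against 0.03 and 0.06 over all genes tested. All 25 DNA replication genes were called higher, 18 in both blocks, with medians of 1.23 and 1.48. The summed level of the mitosis genes was 1569 to 1639 CPM in WT, 4936 to 5018 in block A and 3994 to 4132 in block B. Top2a, the topoisomerase that untangles chromosomes, stood at 177, 181 and 169 CPM in WT, 979, 965 and 974 CPM in block A and 661, 642 and 618 CPM in block B, 5.54-fold and 3.64-fold higher (log2 difference 2.17, SE 0.14, adjusted p = 3.6e-09). Birc5, survivin of the chromosomal passenger complex, stood at 38.3, 37.7 and 36.9 CPM in WT, 139, 138 and 138 CPM in block A and 141, 139 and 145 CPM in block B (log2 difference 1.89, SE 0.08, adjusted p = 2.0e-11). Cenpe, a kinetochore motor, stood at 41.8, 144 and 149 CPM in WT, A and B. For all 3 genes the 6 double mutant libraries were above WT, and Top2a was higher in block A than in block B. Mcm5, of the helicase that opens origins, stood at 36.9, 32.8 and 33.4 CPM in WT, 180, 153 and 170 CPM in block A and 150, 156 and 153 CPM in block B, 4.87-fold and 4.45-fold higher (log2 difference 2.22, SE 0.07, adjusted p = 3.5e-13), and Tk1 (28.8, 134 and 121 CPM), thymidine kinase, and Cdc6 (9.14, 34.2 and 39.9 CPM), which loads the helicase, were higher too. Mki67, a proliferation marker, was called but at 158, 564 and 279 CPM missed the 2-fold rule in block B.

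The promoters of 3 of these genes show the motifs that are known from cell cycle genes, in the 250 bases before the start site (RefSeq, GRCm38.p6). Top2a and Cdk1, the mitotic kinase, are 2 mitosis genes higher in both blocks and were chosen for their TTTGAA matches. Gins3, of the replication helicase, is 1 of 2 replication genes chosen likewise by TTCCCGC. Not every gene of the lists was open to this choice, so others may hold as many matches or more. Capitals mark TTTGAA (the cell cycle homology region) and CCAAT in the first pair, and TTCCCGC (an E2F core) and CCAAT in the last, on either strand.
Top2a (chr11:99024190-99024439, minus strand): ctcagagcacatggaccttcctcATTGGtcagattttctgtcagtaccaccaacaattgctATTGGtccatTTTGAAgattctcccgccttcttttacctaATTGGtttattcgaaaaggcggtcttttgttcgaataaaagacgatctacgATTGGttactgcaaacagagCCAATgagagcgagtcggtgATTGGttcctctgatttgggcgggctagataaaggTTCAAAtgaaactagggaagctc
Cdk1 (chr10:69352913-69353162, minus strand): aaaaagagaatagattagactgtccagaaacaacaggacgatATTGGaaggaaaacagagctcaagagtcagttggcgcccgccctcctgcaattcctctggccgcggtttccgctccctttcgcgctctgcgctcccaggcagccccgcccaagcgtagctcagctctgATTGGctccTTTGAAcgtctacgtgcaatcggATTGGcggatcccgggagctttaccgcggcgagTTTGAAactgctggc
Gins3 (chr8:95633309-95633558, plus strand): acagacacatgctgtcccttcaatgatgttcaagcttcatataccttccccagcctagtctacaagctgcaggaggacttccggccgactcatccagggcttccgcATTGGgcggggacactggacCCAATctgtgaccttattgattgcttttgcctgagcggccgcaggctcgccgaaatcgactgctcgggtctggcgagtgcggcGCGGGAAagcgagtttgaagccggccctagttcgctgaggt
Top2a held 2 TTTGAA and 6 CCAAT matches and Cdk1 2 and 3, while Gins3 held 1 TTCCCGC and 2 CCAAT matches. The other replication gene of that choice, Cdc6, held 1 TTCCCGC and 0 CCAAT matches, and its promoter is not printed. The CCAAT letters were found in 18 of 20 mitosis promoters (90%) and in 36.5% of the 11359 promoters of tested genes. TTTGAA was found in 6 of 20 mitosis promoters (30%) against 10.6%, and the share depended on the window: with the 50 bases after the start included it was 14 of 20 (70%) against 12%. TTCCCGC was found in 5 of 20 replication promoters (25%) against 6.85%, and in 10 of 20 (50%) against 8.28% with those 50 bases. Among all genes higher in both blocks TTTGAA stood at 12.6%, and CCAAT at 39.3%, near the shares over all promoters. A match is a run of letters, not a site shown to be used.

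Of 23 genes of G1 control 12 were called higher and 3 lower, with 3 higher in both blocks. These were Ccne2, a cyclin of S phase entry, at 4.98, 17.5 and 22.1 CPM in WT, A and B, Cdkn2c, a CDK inhibitor, at 7.64, 25.9 and 26.7 CPM, and Cdkn1c, an imprinted CDK inhibitor, at 0.0407, 1.43 and 1.3 CPM. Cyclin D1, Ccnd1, was called lower at 893, 679 and 394 CPM, and Ccnd2 higher at 316, 1067 and 556 CPM. The Ccnd1 call was lost without WT 1, WT 2 or WT 3 (adjusted p = 0.0567, 0.0614 and 0.0564). Of 25 glycolysis and hypoxia genes 14 were called higher and 2 lower, but only Pgam1, a mutase of glycolysis, and Slc16a3, a lactate exporter, passed the 2-fold rule in both blocks. Pgam1 stood at 243, 224 and 238 CPM in WT, 527, 552 and 566 CPM in block A and 609, 579 and 597 CPM in block B (log2 difference 1.28, SE 0.09, adjusted p = 1.2e-08). Of 24 oxidative phosphorylation genes 11 were called higher and 3 lower, none past 2-fold in both blocks, with Atp5b at 1204, 1452 and 1524 CPM.

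Most genes of MHC class I antigen presentation were higher in both blocks. Of 13 tested, 10 were called higher and 0 lower, 8 in both blocks, with medians of 2.25 and 1.61 on the log2 scale. Psmb8, a proteasome subunit that shapes peptides for presentation, had 0 reads in each library of WT, 24.7, 22 and 23.3 CPM in block A and 36, 39.8 and 38.3 CPM in block B, at least 390-fold and 636-fold above 3 reads over WT (log2 difference 8.96, SE 0.20, adjusted p = 5.3e-15). Tap1, 1 side of the pump that carries peptides into the endoplasmic reticulum, stood at 0.372, 0.172 and 0.18 CPM in WT, 19, 16.8 and 15.6 CPM in block A and 19.4, 19.3 and 19.9 CPM in block B, 70.8-fold and 80.6-fold higher (log2 difference 5.99, SE 0.17, adjusted p = 1.1e-13). Its partner Tap2 stood at 1.34, 43.8 and 65.4 CPM in WT, A and B, and Psmb9, the second inducible proteasome subunit, at 0.0414, 7.19 and 5.53 CPM. Nlrc5, which switches on class I genes, stood at 1.03, 6.34 and 12.9 CPM. WT was at or near 0 for Psmb8, Psmb9 and Tap1, and all 6 double mutant libraries were above it. The class I heavy chain gene H2-K1 was at 60.5, 288 and 221 CPM, and its counts and those of H2-Q4 are uncertain because the family has near-identical copies. Not called were B2m (458, 457 and 437 CPM), H2-D1 (118, 271 and 115 CPM) and H2-T23 (31.8, 54.6 and 15.6 CPM).

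Psmb8, Psmb9, Tap1 and Tap2 lie side by side on chromosome 17. They formed 1 run of 6 neighbouring tested genes, from 34153072 to 34269419, that were all higher in both blocks, with the class II genes H2-DMb1 (0.299, 3.22 and 2.04 CPM) and H2-Ab1 (0, 8.08 and 0.521 CPM) at its ends. Tap1 and Psmb9 are read in opposite directions, by RefSeq from start sites 226 bases apart. The 225 bases between these RefSeq start sites are shown, with CCAAT in capitals. In GENCODE the Psmb9 gene reaches to 34187764, past the Tap1 start at 34187553, and the stretch lies within Psmb9.
Tap1 and Psmb9 (chr17:34187331-34187555, plus strand): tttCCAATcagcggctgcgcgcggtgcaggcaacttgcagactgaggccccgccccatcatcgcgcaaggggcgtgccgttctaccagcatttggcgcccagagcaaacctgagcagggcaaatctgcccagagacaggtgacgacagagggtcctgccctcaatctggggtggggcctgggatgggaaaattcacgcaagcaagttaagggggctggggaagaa
The stretch held 1 CCAAT match, and it held neither the core of the interferon response element (GAAA, any 2 bases, GAAA) nor TTCNNNGAA, the STAT element, on either strand. Over the MHC class I list the core was found in 2 of 11 promoters (18.2%) against 2.61% of all. With the 50 bases after the start it was 3 of 11 (27.3%) against 2.99%. TTCNNNGAA was found in 1 of 11 (9.09%) against 5.85%.

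Of 30 interferon response genes 12 were called higher and 2 lower, 8 and 1 in both blocks, with medians of 0.40 and 0.94. Ifih1, a sensor of viral RNA, stood at 0.435, 0.747 and 0.722 CPM in WT, 11, 11.4 and 11 CPM in block A and 9.89, 12 and 11.1 CPM in block B, 17.5-fold and 17.3-fold higher (log2 difference 4.03, SE 0.32, adjusted p = 3.9e-08). Parp14, an ADP-ribosyltransferase, stood at 0.869, 1.15 and 0.902 CPM in WT, 23, 24.4 and 23.8 CPM in block A and 11.7, 13.1 and 13.6 CPM in block B (log2 difference 4.09, SE 0.37, adjusted p = 1.7e-07). Isg15, a ubiquitin-like modifier, stood at 1.74, 6.58 and 17.4 CPM in WT, A and B. Oas1a, which senses double-stranded RNA, was low in every library (0.0192, 0.726 and 0.342 CPM) and has close copies. Oas3 of the same family was lower (4.96, 1.69 and 0 CPM), and Irf9 was called lower (log2 difference -0.59), so that the group did not move as one. The Oas3 call was lost without WT 1, WT 2 or WT 3 (adjusted p = 0.0664, 0.0708 and 0.0654) and without block B (adjusted p = 0.257). The promoter of Isg15 is shown as the one with most matches to that core, in capitals, among the members higher in both blocks.
Isg15 (chr4:156200819-156201068, minus strand): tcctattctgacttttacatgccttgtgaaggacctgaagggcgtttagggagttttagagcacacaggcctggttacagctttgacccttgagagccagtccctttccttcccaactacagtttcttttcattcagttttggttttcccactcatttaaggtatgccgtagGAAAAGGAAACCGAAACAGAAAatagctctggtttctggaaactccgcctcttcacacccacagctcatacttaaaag
Its 3 matches overlap each other. The motif was found in 11 of 22 interferon promoters (50%) and in 2.61% of all, and among genes higher in both blocks in 3.25%.

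Of 21 cytokine genes 6 were called higher, near the 26.5% over all genes, and 2 lower, with 2 higher and 1 lower in both blocks. Il6, an inflammatory cytokine, stood at 0.807, 0.345 and 0.421 CPM in WT, 9.01, 10.2 and 9.55 CPM in block A and 10.2, 10.1 and 9.41 CPM in block B, 18.3-fold and 18.9-fold higher (log2 difference 4.15, SE 0.19, adjusted p = 5.3e-11). Il33, an alarm cytokine of barrier cells, stood at 2.17, 19.7 and 14 CPM in WT, A and B, and Il1a, an epithelial alarm cytokine, fell (4.56, 0.943 and 0.372 CPM). The 6 Il6 values of the double mutants lay within a narrow band above WT.

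Of 25 PI3K, AKT and mTOR genes 5 were called higher and 9 lower. In both blocks 2 moved each way, which is near the share over all genes tested (7.19% and 6.83%). Pik3r3, a regulatory subunit of PI3-kinase, stood at 21.2, 25 and 22.4 CPM in WT, 75.7, 76.3 and 75.8 CPM in block A and 98.5, 94.5 and 92.9 CPM in block B, 3.33-fold and 4.17-fold higher (log2 difference 1.90, SE 0.32, adjusted p = 1.5e-04). Pik3cd, a catalytic subunit, stood at 1.58, 3.81 and 11.6 CPM in WT, A and B. Sgk1, a kinase downstream of the pathway, stood at 267, 270 and 274 CPM in WT, 116, 115 and 111 CPM in block A and 118, 114 and 111 CPM in block B and fell 2.36-fold and 2.36-fold (log2 difference -1.24, SE 0.10, adjusted p = 3.2e-08), and Deptor, an inhibitor of mTOR, fell (33.2, 7.57 and 16.2 CPM), with an adjusted p of 0.0545 without block A.

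Of 21 genes of FOXO targets and insulin feedback 6 were higher and 5 lower in both blocks. The IGF-binding proteins split: Igfbp2 stood at 0.372, 0.46 and 0.361 CPM in WT, 55.3, 55.6 and 54.6 CPM in block A and 232, 240 and 263 CPM in block B. Igfbp5 stood at 0.18, 21.4 and 561 CPM in WT, A and B, 119-fold and 3120-fold higher. Igfbp6 was higher (2.95, 83.5 and 118 CPM in WT, A and B), and Igfbp3 (162, 78.2 and 48.2 CPM) and Igfbp7 (761, 208 and 255 CPM) were lower. Igfbp2 and Igfbp5 were several times higher in block B than in block A. The receptor gene Igf1r (208, 97.8 and 90.4 CPM), the receptor adaptor Irs2 (48.8, 10.7 and 12.4 CPM) and the redox regulator Txnip (197, 85.9 and 89.3 CPM) were lower in both blocks.

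Matrix genes differed between the blocks. Of 24 collagen and matrix genes 12 were called higher and 3 lower, 8 and 2 in both blocks, but the summed level was 31452 to 34871 CPM in WT, 11075 to 11385 in block A and 48792 to 52546 in block B. Postn, periostin of stroma, stood at 2.05, 3.51 and 2.47 CPM in WT, 149, 174 and 150 CPM in block A and 1697, 1643 and 1708 CPM in block B, 59-fold and 629-fold higher (log2 difference 7.59, SE 0.97, adjusted p = 7.8e-06). Col6a3, a chain of type VI collagen, stood at 1.74, 1.9 and 1.02 CPM in WT, 52.3, 54.4 and 52.5 CPM in block A and 462, 479 and 434 CPM in block B (log2 difference 6.64, SE 0.88, adjusted p = 1.1e-05), and Col6a2 at 13.6, 95.6 and 397 CPM in WT, A and B. Sparc, which binds collagen, stood at 223, 628 and 2806 CPM. For all 4 the double mutants were above WT with block B the higher block. The summed fibroblast markers were also highest in block B, but in block A they were below WT.

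Of 22 basement membrane genes 5 were higher and 4 lower in both blocks. Nid2, a linker of laminin and collagen IV, stood at 0.124, 0.46 and 0.301 CPM in WT, 54.4, 55.6 and 51.6 CPM in block A and 436, 453 and 433 CPM in block B, 183-fold and 1495-fold higher (log2 difference 8.88, SE 0.69, adjusted p = 2.7e-08), and its relative Nid1 at 1.61, 58.1 and 706 CPM in WT, A and B. Lama4, a laminin chain, was highest in block A (0.81, 51.7 and 16.6 CPM). Lama5 (259, 86.5 and 111 CPM), the laminin chain of epithelia, and Col7a1 (88.5, 12 and 35.4 CPM), of anchoring fibrils, were lower. Col17a1, the hemidesmosome collagen of basal keratinocytes, stood at 51.2, 56.7 and 52.7 CPM in WT, 10.8, 9.98 and 11.2 CPM in block A and 0.357, 0.341 and 0.461 CPM in block B and was lower in all 6 libraries (log2 difference -4.62, SE 1.46, adjusted p = 0.0154). Its call was lost without block B (adjusted p = 0.157). Itga9 (0.0808, 13.1 and 6.48 CPM), an integrin subunit for tenascin and related ligands, was higher and Itga2 (8.11, 2.68 and 0.353 CPM), a collagen-binding subunit, lower. Of 22 matrix protease genes and inhibitors 5 were higher in both blocks and 0 lower, among them the proteases Mmp2 (2.85, 25 and 398 CPM), Mmp9 (0.119, 3.26 and 4.58 CPM) and Mmp15 (0.219, 3.74 and 5.13 CPM) and the protease inhibitor Serpine2 (2.43, 39.4 and 28.3 CPM).

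Several tight junction genes were lower. Of 12 tight junction genes 0 were called higher and 6 lower, 4 in both blocks, with medians of -0.23 and -2.63. Cgn, cingulin of the junction plaque, stood at 11.7, 9.43 and 10.9 CPM in WT, 1.97, 1.96 and 1.52 CPM in block A and 0.119, 0.227 and 0.0658 CPM in block B, 5.88-fold and 77.7-fold lower (log2 difference -4.18, SE 0.78, adjusted p = 3.4e-04), and Cldn4 stood at 1.34, 0.0375 and 0.0397 CPM in WT, A and B. The simple epithelium list held 6 tested genes, of which 5 were lower in both blocks, with medians of -5.25 and -3.65. Krt8 stood at 42, 40.6 and 41.9 CPM in WT, 0.555, 0.056 and 0.225 CPM in block A and 0.0596, 0.17 and 0.0658 CPM in block B (log2 difference -7.68, SE 0.48, adjusted p = 2.2e-09), and its partner keratin Krt18 at 237, 224 and 222 CPM in WT, 8.76, 9.19 and 8.82 CPM in block A and 0 reads in each library of block B (log2 difference -8.27, SE 1.58, adjusted p = 4.1e-04). Both keratins were high in all 3 WT libraries. Cdh2 (45.7, 146 and 92.3 CPM), N-cadherin, and Cdh11 (2.31, 43.5 and 282 CPM), a mesenchymal cadherin, were the 2 members of the desmosome and adherens junction list higher in both blocks. Of its 19 tested genes 2 were called higher and 4 lower, 2 and 0 in both blocks, with medians of 0.32 and -0.61. Some desmosome genes were highest in block A, Dsp at 94.9, 375 and 0.471 CPM in WT, A and B, Pkp1 at 5.92, 325 and 6.74 CPM and Dsc3 at 0.0407, 14.2 and 0 CPM, and these 3 were not called. Of 13 genes around the epithelial to mesenchymal transition 1 was higher in both blocks, Prrx1 (46.9, 146 and 231 CPM), and 1 lower, Twist2 (29.2, 5.85 and 4.95 CPM), both transcription factors of mesenchyme.

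Of the squamous differentiation genes, Ivl (1.52, 0.0393 and 0 CPM in WT, A and B), Sprr3 (1.82, 0.0804 and 0.0219 CPM) and Sprr1a (9.89, 3.07 and 0.228 CPM), precursors of the cornified envelope, and Lor (2.28, 0.808 and 0.122 CPM) were lower in both blocks. These levels were low in WT too. Krt16, a keratin of activated keratinocytes, was called higher (0.121, 13 and 0.475 CPM), mostly through block A, and the call was lost without any 1 library of WT (adjusted p = 0.0749, 0.101 and 0.0624) or of block A (adjusted p = 0.0564, 0.0563 and 0.0564). Krt15, a basal keratin, was lower (5.91, 2.33 and 0 CPM), a call that was lost in limma without WT 1 (adjusted p = 0.0596), without WT 2 (0.0682) and without WT 3 (0.0537).

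Patterning genes were among those that differed most. Of 24 Hox genes tested, which specify position along the trunk, 0 were higher and 8 lower in both blocks. Hoxc4 stood at 67.1, 68.2 and 64.7 CPM in WT, 0.0617, 0 and 0 CPM in block A and 0.298, 0.341 and 0.132 CPM in block B (log2 difference -8.81, SE 0.67, adjusted p = 2.1e-08), and Hoxc5 at 35.8, 37 and 39 CPM in WT, 0 reads in each library of block A and 0.179, 0.114 and 0.395 CPM in block B. Hoxc6 (40.1, 0.0411 and 0.31 CPM in WT, A and B), Hoxc8 (16.6, 0 and 0.263 CPM) and Hoxc9 (1.75, 0.0206 and 0.226 CPM) were lower too, and these 5 genes lie within 1 run of 7 neighbouring lower genes on chromosome 15, from 102706777 to 103146828. The blocks differed for the other clusters: Hoxb3 stood at 27.2, 0.0187 and 10.9 CPM, and Hoxa5 at 6.82, 0 and 6.32 CPM, not called. The summed level of the Hox list was 242 to 256 CPM in WT, 0.73 to 1.11 in block A and 64.7 to 70.4 in block B.

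Of 39 oral, jaw and foregut patterning factors 12 were higher and 5 lower in both blocks. Msx1 of the jaw and tooth buds had 0 reads in each library of WT, 0.617, 0.729 and 0.955 CPM in block A and 1.25, 0.966 and 0.922 CPM in block B. Tbx1, of the pharyngeal arches, stood at 0.281, 11.6 and 4.12 CPM in WT, A and B, Lhx6, of the oral side of the jaw, at 0.32, 3.43 and 1.94 CPM, and Dlx5, of the lower jaw, at 0, 0.701 and 5.95 CPM. Gata4, a factor of gut and heart, stood at 7.01, 5.92 and 6.37 CPM in WT, 0.0617, 0.056 and 0.0562 CPM in block A and 0.417, 0.227 and 0.132 CPM in block B (log2 difference -5.12, SE 0.47, adjusted p = 1.7e-07), and Foxa1, of endoderm, at 36.5, 1.73 and 3.95 CPM. Msx1, Tbx1, Lhx6 and Dlx5, of the mouth and arches, were thus among the higher members, and Gata4 and Foxa1 among the lower.

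Signalling lists were mixed. Of 24 Wnt genes 6 were higher and 4 lower in both blocks, with the feedback inhibitor Nkd1 (0, 1.11 and 4.3 CPM in WT, A and B), the receptor Ror2 (0.0192, 3.58 and 1.3 CPM) and the transcription factor Lef1 (0.42, 3.48 and 22.3 CPM) higher and the ligand Wnt7a (10.6, 1.41 and 0 CPM) and the secreted Dkk3 (242, 35.8 and 24.8 CPM) lower. Of 15 Notch genes 4 were higher in both blocks and 0 lower. Notch1, the receptor, stood at 2.98, 3.97 and 4.39 CPM in WT, 45.8, 43 and 40.5 CPM in block A and 21.6, 23.9 and 21.1 CPM in block B, 11.4-fold and 5.88-fold higher (log2 difference 3.03, SE 0.24, adjusted p = 4.1e-08), and the target genes Hey1 (1.65, 4.53 and 6.76 CPM) and Hey2 (0, 0.776 and 0.674 CPM) were higher. The Hey1 call was lost without WT 1 or WT 3 (adjusted p = 0.0539 and 0.0684). Of 10 Hedgehog genes 2 were higher in both blocks, the effectors Gli2 and Gli1. Gli2 had 0 reads in each library of WT, 12, 8.85 and 9.05 CPM in block A and 10.1, 9.43 and 9.87 CPM in block B, at least 167-fold and 164-fold above 3 reads over WT (log2 difference 7.37, SE 0.26, adjusted p = 1.6e-12). Of 27 TGF-beta and BMP genes 2 were called higher and 9 lower. In both blocks 1 was higher, the ligand Tgfb2 (19.3, 55.2 and 163 CPM), and 5 were lower, among them the BMP inhibitor Grem1 at 271, 276 and 278 CPM in WT, 77.8, 74.2 and 72.3 CPM in block A and 41.5, 41.1 and 36.4 CPM in block B (log2 difference -2.34, SE 0.21, adjusted p = 1.7e-07). Of 23 genes of EGF signalling 2 were lower in both blocks, the receptor Egfr (from 155 CPM in WT, 2.18-fold and 7.65-fold lower) and the phosphatase Dusp5 (9.35, 1.56 and 4.26 CPM).

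Of 16 imprinted growth genes 4 were higher in both blocks and 0 lower: Grb10, Cdkn1c, Peg3 (0.235, 9.57 and 110 CPM in WT, A and B) and Zim1 (0, 0.305 and 5.65 CPM). The stress and metabolism lists held few such genes. Sdf2l1, of the endoplasmic reticulum, was higher (6.02, 19.1 and 31.3 CPM), as were Gsr, glutathione reductase (41.8, 110 and 93.2 CPM), and Mvk, of cholesterol synthesis (14.8, 54.3 and 34.7 CPM). Gstm1, a glutathione transferase (321, 88.6 and 114 CPM), was lower. Of 24 cytosolic ribosomal protein genes none passed the 2-fold rule, with 2 called higher and 7 lower.

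**Figure D4:**
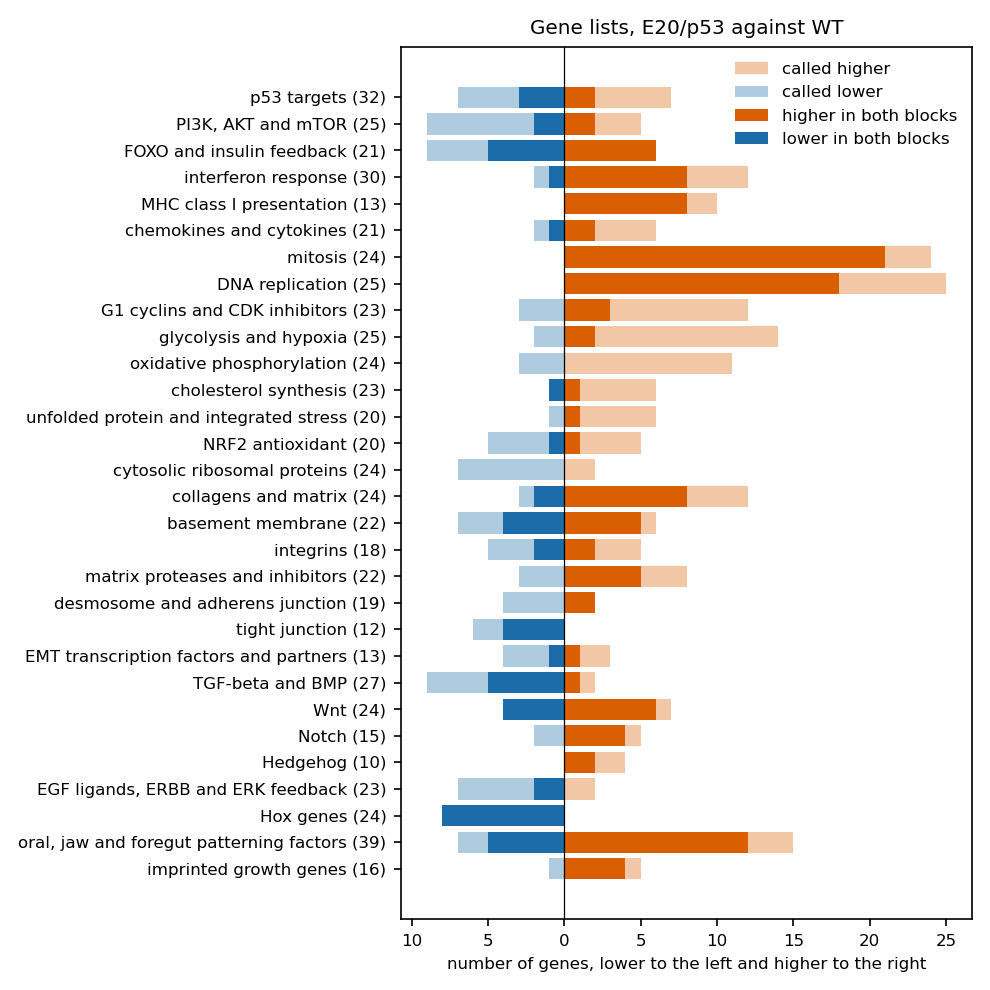
Number of genes of each pathway list called higher (right) or lower (left) in E20/p53, pale bars, and of those that moved at least 2-fold the same way in both blocks, full bars, with the number tested in brackets. Mitosis (21 of 24) and DNA replication (18 of 25) have the longest full bars to the right and Hox genes (8 of 24) the longest to the left.

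Position on the chromosomes was read from GENCODE M21 (mm10) for 14956 of the 15235 genes. On chromosome 16, 78 of 457 tested genes (17.1%) were higher in both blocks and 13 (2.84%) lower, against 7.19% and 6.83% over all genes. Its median log2 difference from the mean of WT was 0.30 to 0.32 over the libraries of block A and 0.73 to 0.76 over those of block B, with 0.03 to 0.04 and 0.05 to 0.08 over all chromosomes. The 3 WT libraries lay between -0.03 and 0.03. The other tongue libraries of the series also lay above WT on chromosome 16, so the shift was not particular to the double mutants. They stood at 0.52 to 0.58 (p53 mutant), 0.52 to 0.57 (PIK3CA mutant 1 to 3) and 0.48 to 0.50 (PIK3CA mutant 4 to 6). On chromosome 7, 125 of 1131 genes (11.1%) were lower and 48 (4.24%) higher, with medians of -0.25 to -0.21 and -0.24 to -0.23. On chromosome 3, 86 of 729 genes (11.8%) were lower, with medians of -0.37 to -0.32 and -0.10 to -0.08, and on chromosome 18, 44 of 396 (11.1%) were higher, with medians of 0.45 to 0.49 and 0.04 to 0.11. The p53 mutant, PIK3CA mutant 1 to 3 and PIK3CA mutant 4 to 6 sets also lay below WT on chromosome 3 (means of -0.10, -0.16 and -0.22). They lay above WT on chromosome 18 (0.12, 0.22 and 0.21). On chromosome 7 they stood at -0.04, 0.10 and 0.00. Chromosome 12 went opposite ways, 0.31 to 0.32 in block A and -0.46 to -0.42 in block B. No test was made, and copy number was not measured here.

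**Figure D5:**
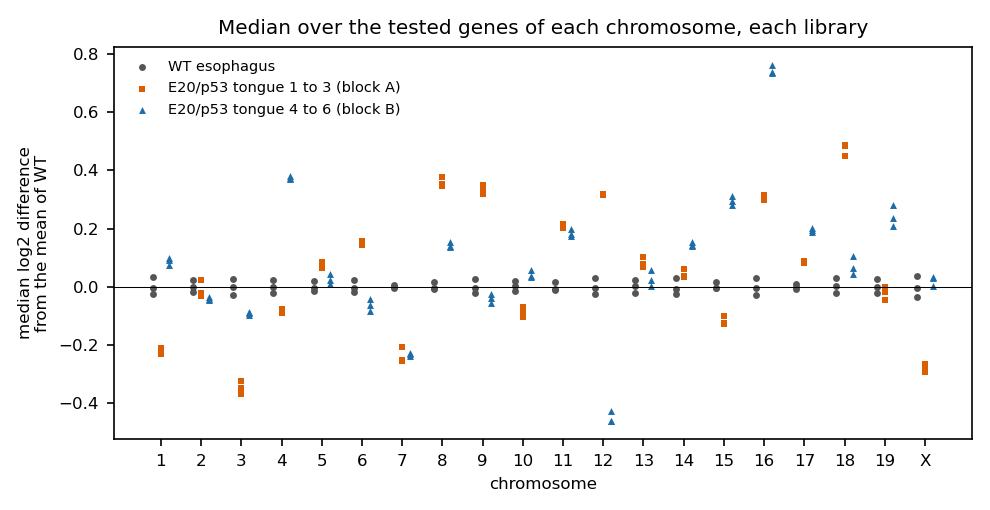
Median log2 difference from the mean of WT over the tested genes of each chromosome, 1 point per library. On chromosome 16 all 6 double mutant libraries lie above 0, at 0.30 to 0.32 and 0.73 to 0.76, on chromosome 7 all lie below, and on chromosome 12 the blocks lie on opposite sides.

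Runs of at least 4 neighbouring tested genes that moved the same way were searched for, and the genes in this paragraph were chosen after their values were seen. On chromosome 4 Padi4, Padi3, Padi1 and Padi2, enzymes that convert arginine to citrulline in proteins, were all lower, Padi4 from 48.8, 52.7 and 46.2 CPM in WT to 0 reads in block A and 0.238, 0.341 and 0.329 CPM in block B, and Padi2 at 29, 5.4 and 0.16 CPM in WT, A and B. On chromosome 3 Sprr1b (7.56, 0.152 and 0.0199 CPM) joined Sprr3, Sprr1a and Ivl in a lower run. On chromosome 16 Parp14, Dtx3l (3.72, 25.5 and 18.5 CPM), Parp9 (4.46, 32.1 and 22.1 CPM) and Kpna1 were higher together, and so were Vgll3 (16, 73.1 and 152 CPM), Gbe1 (19.5, 40.7 and 43.1 CPM) and the axon guidance receptors Robo1 (1.92, 42 and 90.3 CPM) and Robo2 (0.598, 1.98 and 12 CPM). On the X chromosome 5 Armcx genes were higher, Armcx3 at 1.24, 1.38 and 1.44 CPM in WT, 42.5, 44.2 and 47.4 CPM in block A and 99.7, 96.4 and 96.8 CPM in block B. Lower runs of Zscan4, Prl2c and Gvin1 copies were found too, in which reads cannot be assigned with certainty.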

How the data were processed

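RNA sequencing was done with a TruSeq Stranded mRNA kit, per the labels' protocols. Per the submitters' processing notes the tools were bcl2fastq 1.8.4, Trimmomatic and featureCounts and the build mm10. The scaling method, like the aligner and annotation, is not given in the sources used here. Log2 values were deposited by the authors for 26143 genes in 18 libraries. In 100% of values they equal log2 of whole reads plus 1 over a scaled library total, to within 0.001, and reads and CPM were computed back from that. The unit is log2, so limma 3.58.1 in R 4.3.3 was fitted to those values as deposited, using its trend option, with 1 mean for each of the 4 groups, all 18 libraries and 14 residual degrees of freedom. P-values were adjusted by Benjamini-Hochberg over the 15235 genes with at least 0.635 CPM (10 reads at the median depth) in 3 or more libraries and at least 15 reads in all. A fold against 0 reads is a lower bound against a floor of 3 reads over the group, which covers counting error only, and groups with 1 to 3 reads get levels without a fold.

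The comparison, the lists and the naming rule were chosen with earlier results of these data known. Named are Trp53, Pik3ca, Cdkn1a and Mdm2. Of genes that moved the same way, up to 12 higher and 12 lower are named by the smaller block difference (at least 5 CPM in the high group) and up to 6 each way by level. Up to 3 are named per list, or 2 by level where none moved. Predicted, RIKEN, pseudogene and antigen receptor genes are left out of the first 2 rankings by their symbols only. Rps4l, annotated as a transcribed processed pseudogene, was therefore kept. A few genes picked by these rules are left unreported and unreplaced, though counts over lists and over all genes include them. Other list members are given for context, chosen after their values were seen. Simulated reads with 100 genes changed 2-fold and 100 changed 4-fold gave 100% recovery at each size, with 5 of 14487 unchanged genes called. That simulation had no shifts between sets. The alternatives were other scalings, filters and pseudocounts, the 9 libraries alone, a replicate block, a 2-fold minimum, set means, and each library or block left out.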

Additional observations from a re-analysis of the deposited data

Results flagged for a closer look

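For each of the 127 named genes the 6 double mutant libraries were searched for 1 library that stood far from the other five relative to their whole range, and 4 genes had one. Chance alone flags about 1 in 20 such groups if the 6 libraries are otherwise alike, and all 4 values rest on few reads. Where the blocks differ, the gap between them widens the range. A library that stands apart from its own block can then go unflagged, so the search does not clear the other genes. Krt8 stood at 0.555 CPM in E20/p53 1 and at 0.056 to 0.225 CPM in the other five. Marveld2, a tight junction gene, stood at 0.298 CPM in E20/p53 4 and at 0 to 0.0617 CPM elsewhere. Sprr3 stood at 0.185 CPM in E20/p53 1 and at 0 to 0.0658 CPM elsewhere. Rps4l stood at 0.0617 CPM in E20/p53 1, which is 1 read, and had 0 reads in the other five. All 4 genes were lower than in WT in every double mutant library.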

How the results depend on the processing

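The counts depended most on what is taken as a replicate. With 6 set means limma called 1 gene higher and 0 lower, at 1574 genes with an unadjusted p under 0.05, and the same 1 and 0 moved the same way in both blocks; that fit has 2 residual degrees of freedom. Against a 2-fold minimum (treat) 699 genes were higher and 520 lower, and all of these moved the same way in both blocks. With log2(CPM + 1) 729 genes were higher in both blocks, since the pseudocount shrinks low genes. At a filter of 5 CPM 643 were lower in both blocks, with 12340 genes tested. Leaving out 1 library gave 3288 to 4245 genes higher and 2540 to 3390 lower, and 1062 to 1107 higher and 988 to 1043 lower in both blocks. Leaving out a whole block gives no value for the counts over both blocks. With a replicate block 4096 genes were higher and 3364 lower, and 1081 and 1001 in both blocks; same-numbered libraries of WT and E20/p53 deviated together with r of 0.044, 0.06 and 0.035, so the numbers do not pair them. The median of all genes was 0.049 as scaled by the authors and -0.008 with plain CPM. Of the 116 named genes that moved the same way, all 116 kept their direction under every alternative that fitted them. Of those 116 genes 91 stayed called against the 2-fold minimum and 0 with set means. Without block B Col17a1, Hey1, Krt15 and Tgfbr3 of the 116 lost their calls, and without block A Pecam1. Among named genes Oas1a lost its call with log2(CPM + 1), Cdkn1a, Krt15 and Msln with the 9 libraries alone, and Cdkn1a, Msln and Tgfbr3 with the replicate block. Some genes that were not called changed sign under at least 1 alternative, and the cause was not tested. Without E20/p53 4 to 6 Acta2 was at -1.17, Tagln at -1.01, Cd68 at 0.365 and Csf1r at -2.09. Csf1r, at 0.276 in the main fit, was at -0.674 with the replicate block. It was at -0.144, -0.181 and -0.267 without E20/p53 4, 5 and 6. Its sign was kept without E20/p53 3, at 0.864. Without E20/p53 1 to 3 Csf1r was at 2.643, Acta2 at 1.803 and Cd68 at -2.383, and these 3 were then called (adjusted p = 8.7e-06, 0.00946 and 8.9e-05 in limma). Genes under about 1 CPM rest on few reads, so a lack of a call there says only that no difference was detectable at this depth.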

Other observations

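Some genes outside the comparison's rule separated the 2 blocks, and no test was made between them. Hoxa5 stood at 6.52, 6.84 and 7.1 CPM in WT and 6.91, 5.34 and 6.71 CPM in E20/p53 4 to 6, and had 0 reads in E20/p53 1 to 3. Des, the muscle filament desmin, stood at 0.186, 0.287 and 0.301 CPM in WT, 0, 0.056 and 0.169 in E20/p53 1 to 3 and 353, 365 and 385 in E20/p53 4 to 6. Acta2, smooth muscle actin, stood at 869, 932 and 869, 399, 404 and 382 and 3071, 3043 and 3200 CPM in the same order. WT lay between the blocks for Acta2, and near 1 of the blocks for the other two genes.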
